A study of Mus musculus with 12 samples.

Results

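Grin1, Grin2a and Grin2b encode subunits of the NMDA receptor, and in mouse hippocampus the lists of m6A peaks held more peaks over each of these genes at 6 weeks of age than at 2 weeks. The peaks were chosen by position in the mouse build mm9, as those that overlapped chromosome 2 from 25146400 to 25175000 for Grin1, chromosome 16 from 9560000 to 10000000 for Grin2a and chromosome 6 from 135660000 to 136125000 for Grin2b. Peaks of the 4 lists that shared at least 1 bp were merged into regions. This gave 108 regions in the windows out of 70674 in the genome, of which 9 lay in the Grin1 window, 69 in the Grin2a window and 30 in the Grin2b window. The windows measured 28.6 kb, 440.0 kb and 465.0 kb in that order.

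NMDA receptors are glutamate-gated channels that pass calcium and drive synaptic plasticity in the hippocampus. Grin1 encodes GluN1, the glycine-binding subunit that every NMDA receptor contains. Grin2a and Grin2b encode GluN2A and GluN2B, glutamate-binding subunits that set how long the channel stays open, and in rodent forebrain the share of GluN2A among synaptic receptors is known to grow during the first postnatal weeks. N6-methyladenosine (m6A) is a methylated form of adenosine in messenger RNA. Reader proteins recognise it, the demethylase FTO can erase it, and it is known to be dense near stop codons and in long exons.

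The libraries compared were 2 of m6A-immunoprecipitated RNA (IP) from 6-week-old and 2 from 2-week-old mice. All came from hippocampi of wild-type C57BL/6 males, and all began from poly(A)-selected RNA that was fragmented and pulled down with an antibody against m6A. Each deposited peak gives the IP tags (sequenced fragments) and the tags of a control, RNA fragments that were not selected, in the same interval. Which input library served as each control is not given in the sources used here. The labels number the 2 libraries of an age as biological replicates without naming animals, so p-values measure the spread between these samples. The other 8 samples, which include adult Fto knockout hippocampus, were not analysed here.

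By the scaling of the files, depth was 16.1 and 16.5 M (mega) IP tags in 6-week replicates 1 and 2 and 23.4 and 23.0 M in 2-week replicates 1 and 2. The controls of the 6-week libraries held 15.8 and 11.7 M tags, those of the 2-week libraries 29.3 and 16.8 M. The 6-week lists, with 33239 and 36494 peaks, were shorter than the 2-week lists, with 39259 and 39105. Every deposited peak had a fold over control of at least 3. Values below are tags per 10 M tags of the library. On that scale the median region called in all libraries was lower at 6 weeks, by a log2 difference of -0.55 in control tags and -0.36 in IP tags, whereas the edgeR fits are scaled to set the median region near 0. Differences per 10 M are given without a correction for that shift. Where a list had more than 1 peak in a region, the region's values are those of its peak with the most IP tags, unless sums are named. In whole hippocampus, more cells that express a gene and more RNA per cell cannot be told apart. The tissue label was not checked against marker genes, since gene positions in mm9 were not used here. In the GRCm38.p6 annotation, used for names only, Grin1 overlaps Lrrc26 and Grin1os, Grin2a overlaps Gm19143, and Grin2b overlaps Gm14329, Gm14330 and Gm26653. The peaks do not separate the strands, so tags of these genes are not told apart from those of the receptor genes. Positions within a window are given from its lower edge, which is the 3′ side, because all 3 receptor genes are transcribed toward lower coordinates.

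**Figure D1:**
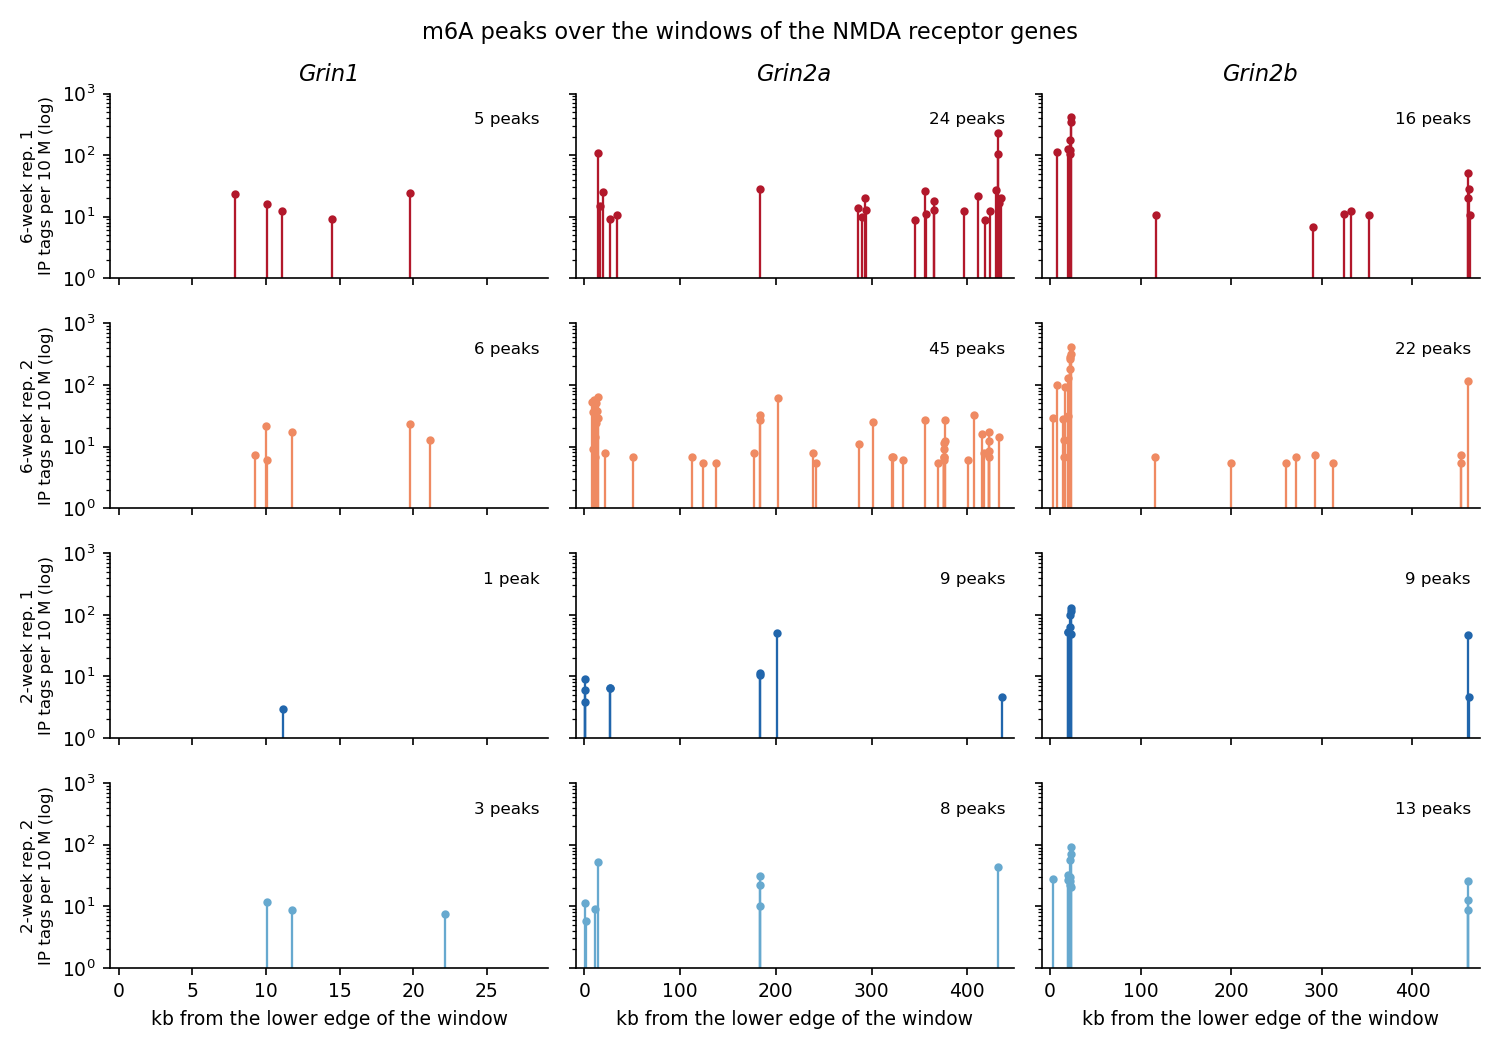
IP tags per 10 M (log axis) of every peak against its distance in kb from the lower edge of the Grin1, Grin2a and Grin2b windows, with a row for each library, the 6-week libraries above the 2-week ones. Each stem is 1 peak, and the number of peaks is printed in each panel. The 6-week libraries had 24 and 45 peaks in the Grin2a window, against 9 and 8 in the 2-week libraries, and in every library the tallest Grin2b peaks stood within 24 kb of the lower edge.

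Each subunit had more called peaks at 6 weeks. The Grin1 window held 5 and 6 peaks in the 6-week libraries, against 1 and 3 in the 2-week libraries. The Grin2a window held 24 and 45 peaks at 6 weeks, against 9 and 8 at 2 weeks. The Grin2b window held 16 and 22 peaks at 6 weeks, against 9 and 13 at 2 weeks. In each window both 6-week lists thus held more peaks than both 2-week lists. The 6-week libraries were sequenced less deeply, in IP and in control, and the effect of depth on these counts was not tested. Over the genome, both 6-week lists held more in 8.11% of 23586 windows of the Grin1 length with at least 1 peak, in 8.86% of 5182 windows of the Grin2a length and in 9.44% of 4948 windows of the Grin2b length. Both held fewer in 13.1%, 25.1% and 26.1% of the windows of those lengths. Either order needs a peak in both lists of the higher age, which windows with 1 peak cannot have. The share among windows with as many peaks as these is not given, here or for the stronger peaks below.

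Much of the difference in Grin2b lay in weak peaks. Peaks with at least 20 IP tags per 10 M numbered 9 and 12 in the Grin2b window at 6 weeks, against 8 and 11 at 2 weeks, and these ranges overlap. In the Grin2a window the counts above that level were 8 and 15 at 6 weeks, against 1 and 4 at 2 weeks. In the Grin1 window they were 2 and 2 at 6 weeks, against 0 and 0 at 2 weeks. Among windows of the same lengths with at least 1 such peak, both 6-week lists held more in 7.34% (Grin1), 12.8% (Grin2a) and 13.3% (Grin2b), and fewer in 9.65%, 12.5% and 12.5%.

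The tags summed over called peaks were also higher at 6 weeks, in the control as well as in the IP. The peaks were called separately in each list, so these sums move with how much was called. Summed over the peaks of the Grin1 window, IP tags per 10 M were 85.6 and 88.4 at 6 weeks, against 2.99 and 27.9 at 2 weeks. For Grin2a the IP sums were 782 and 846 at 6 weeks, against 108 and 184 at 2 weeks. For Grin2b they were 1565 and 2053 at 6 weeks, against 612 and 449.9 at 2 weeks. The ages did not overlap for any of the 3 genes. How often the sums of other windows of these lengths keep that order is not given here, for IP or control tags. The difference of mean log2 sums, 6 minus 2 weeks, was 3.25 for Grin1, 2.52 for Grin2a and 1.77 for Grin2b, each with an exact two-sided permutation p of 0.33, the smallest that 2 libraries against 2 allow.

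Control tags, summed over the same peaks of each list, were 14.6 and 17.1 per 10 M for Grin1 at 6 weeks, against 0.341 and 4.75 at 2 weeks. They were 184 and 167 for Grin2a at 6 weeks, against 20.8 and 44.0 at 2 weeks, and 224 and 442 for Grin2b at 6 weeks, against 95.5 and 78.4 at 2 weeks. The control sums did not overlap between the ages either, with log2 differences of 3.63, 2.53 and 1.86 for Grin1, Grin2a and Grin2b and again an exact permutation p of 0.33 each. The Grin1 differences rest on few tags: without 2-week replicate 1 they were 1.64 in IP and 1.73 in control tags, and without 2-week replicate 2 they were 4.86 and 5.53. The ratio of the IP sum to the control sum did overlap. It was 5.87 and 5.18 for Grin1 at 6 weeks, against 8.76 and 5.86 at 2 weeks. For Grin2a it was 4.26 and 5.08 at 6 weeks, against 5.21 and 4.19 at 2 weeks, and for Grin2b 6.98 and 4.64 at 6 weeks, against 6.41 and 5.74 at 2 weeks. Exact permutation p-values of the ratio lay between 0.667 and 1.

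The called peaks covered 505 and 580 bp of the Grin1 window at 6 weeks, against 101 and 303 bp at 2 weeks. In the Grin2a window they covered 2331 and 4347 bp at 6 weeks, against 808 and 742 bp at 2 weeks, and in the Grin2b window 1533 and 2082 bp at 6 weeks, against 837 and 1058 bp at 2 weeks. Per peak, the mean IP tags per 10 M were 17.1 and 14.7 for Grin1 at 6 weeks, against 2.99 and 9.29 at 2 weeks. Grin2a had 32.6 and 18.8 per peak at 6 weeks, against 12.0 and 23.0 at 2 weeks, and these overlap. Grin2b had 97.8 and 93.3 per peak at 6 weeks, against 68.0 and 34.6 at 2 weeks. As the mean of log2 values per peak, the difference, 6 minus 2 weeks, was 1.37 in IP and 0.89 in control tags for Grin1, where the ages still did not overlap. For Grin2a it was 0.40 in IP and 0.034 in control tags, and for Grin2b -0.043 and -0.24. On that measure the ages overlapped for Grin2a and Grin2b in both kinds of tags (exact permutation p of 0.667 to 1).

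**Figure D2:**
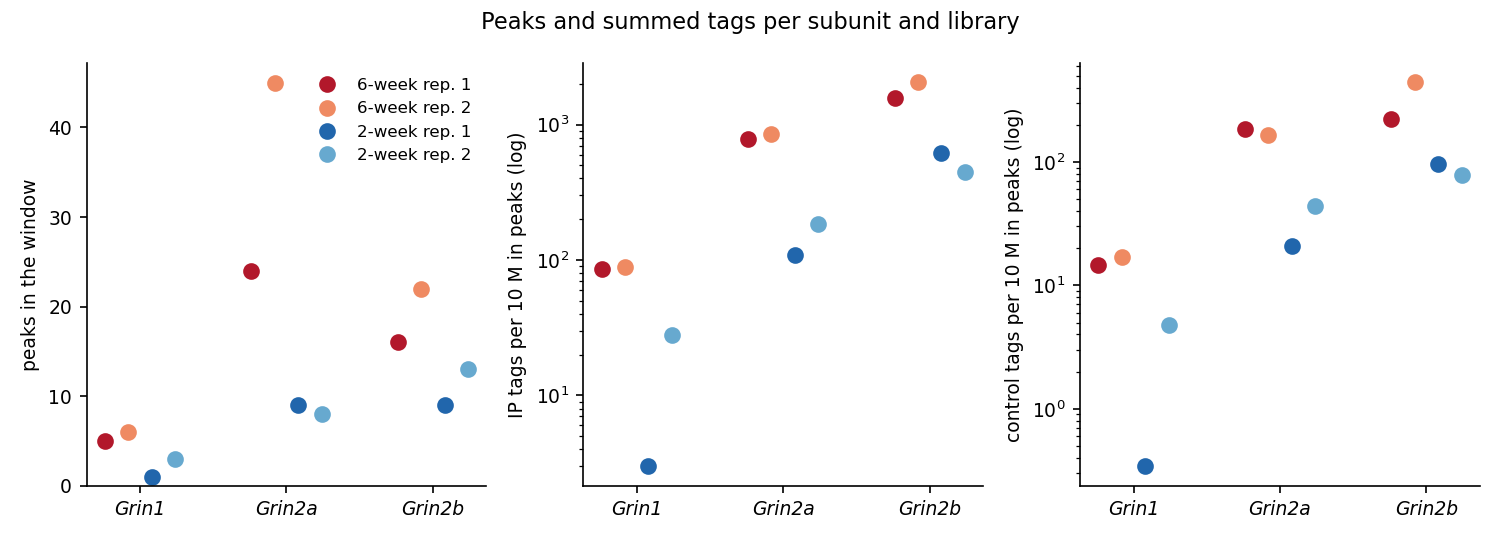
Peaks called in each window (left, linear axis from 0), summed IP tags per 10 M in those peaks (middle, log axis) and summed control tags per 10 M (right, log axis), with 1 point per library and the 6-week libraries to the left of the 2-week ones. For each of the 3 genes both 6-week points stand above both 2-week points in all 3 panels, as for Grin2a with IP sums of 782 and 846 at 6 weeks, against 108 and 184 at 2 weeks.

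The highest Grin1 peak of any list, with 24.2 IP tags per 10 M, stood below the highest of Grin2a, with 226, and of Grin2b, with 419.8. The region with the highest deposited score in its window lay 19.8 kb from the lower edge, from 25166158 to 25166266, and was called at 6 weeks only. It held 24.2 and 23.6 IP tags per 10 M in the 6-week libraries, at 4.77-fold and 3.95-fold over control, from 39 and 39 tags. At these equal tags its deposited scores were 14 and 36, so its rank rests on 6-week replicate 2. Neither 2-week list had a peak there, but the lowest peak that these lists hold has 2.13 and 3.92 IP tags per 10 M, and a peak must also pass the fold minimum, so the absence of a call is not an absence of signal. Over the genome, 1.92% of regions were called at 6 weeks only.

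The Grin1 region called in most libraries lay from 25156367 to 25156562, where peaks were listed in both 6-week libraries and in 2-week replicate 2. It had 16.1 and 21.8 IP tags per 10 M at 6 weeks, against 11.8 in 2-week replicate 2. Its control held 0 and 6 tags at 6 weeks, against 4 tags in 2-week replicate 2. The deposited fold of 50.9 in 6-week replicate 1 thus rests on a control without a tag, where counting error allows up to 3 tags, or 1.90 per 10 M. A pair of further regions was shared by 1 library of each age: from 25157443 to 25157609, 12.4 IP tags per 10 M in 6-week replicate 1 stood against 2.99 in 2-week replicate 1, and from 25158131 to 25158259, 16.96 in 6-week replicate 2 stood against 8.71 in 2-week replicate 2. In each of these shared places the 6-week value was the higher. No Grin1 region was called in all 4 libraries, so none entered the fits, and 5 of the 9 were called in a single library, with 2 and 2 of them in the 6-week libraries, against 0 and 1 in the 2-week libraries.

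Grin2a had the most regions and the least shared ones. Of its 69 regions 61, or 88.4%, were called in a single library, against 58.6% of all regions in the genome. These single calls fell 19 and 36 to the 6-week libraries, against 5 and 1 to the 2-week libraries. How the genome's single-library regions split between the lists is not given, here or for Grin1 and Grin2b. None of the 69 was called in all 4 libraries, where the genome had 14.4%. In 6-week replicate 2, 13 of the 45 Grin2a peaks had no control tag, and in 6-week replicate 1, 3 of 24, against 0 of 9 and 1 of 8 in the 2-week lists. Over the whole lists, peaks without a control tag made up 14.3% and 6.73% in 6-week replicates 2 and 1, against 7.07% and 17.8% in 2-week replicates 1 and 2.

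The highest Grin2a peak stood toward the 5′ side, 432 kb from the lower edge. This region, from 9992416 to 9992524, held 226 IP and 57.0 control tags per 10 M in 6-week replicate 1, against 42.7 IP and 10.7 control tags in 2-week replicate 2. The fold over control of these peaks was almost equal, at 3.97 in 6-week replicate 1 and 3.99 in 2-week replicate 2. However, 6-week replicate 1 had another, overlapping peak there, at the same positions as the 2-week peak. It held 104.8 IP and 34.2 control tags per 10 M, at 3.06-fold, so both contrasts depend on which peak is taken. The region was not listed in 6-week replicate 2 or in 2-week replicate 1, so its difference rests on 1 library of each age. Beside it, the region from 9992757 to 9992892 was called at 6 weeks only, with 16.7 and 14.5 IP tags per 10 M at 3.78-fold and 17.03-fold over control, the second from a control of 1 tag.

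On the 3′ side, 6.28 kb of the Grin2a window from 9568280 to 9574561 held 11 regions. The number of peaks there was 1 and 11 in 6-week replicates 1 and 2, against 0 and 2 in 2-week replicates 1 and 2. The 6-week libraries therefore differed from each other by more than the ages did in this stretch. A single region in it was listed in both 6-week libraries, from 9573958 to 9574076, with 109.8 and 63.6 IP tags per 10 M, against 52.7 in 2-week replicate 2 and no peak in 2-week replicate 1. Its control tags per 10 M were 24.1 and 20.5 at 6 weeks, against 17.2 in 2-week replicate 2, and its folds of 4.56 and 3.10 at 6 weeks, against 3.06 in 2-week replicate 2, lay near the minimum of 3.

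In the middle of the Grin2a window, 2 neighbouring regions were called in 6-week replicate 2 and in both 2-week libraries. About 183 kb from the lower edge, the region from 9742980 to 9743145 had 32.7 IP tags per 10 M in 6-week replicate 2, against 11.5 and 21.8 at 2 weeks. The adjoining region from 9743158 to 9743267 had 26.7 in 6-week replicate 2, against 10.7 and 30.9 at 2 weeks, so the 6-week value fell between the 2-week values. Another 6-week peak of 28.5 IP tags per 10 M stood in replicate 1 just above them, within the same 0.497 kb. The Grin2a region called at 6 weeks only farther toward the 5′ side, from 9915296 to 9915423, had 26.0 and 26.7 IP tags per 10 M at 4.11-fold and 3.47-fold. The opposite case, from 9561205 to 9561340 near the lower edge, was called at 2 weeks only, with 8.96 and 11.3 IP tags per 10 M from 21 and 26 tags, and a control of 7 and 0 tags. Regions called at 2 weeks only made up 6.41% of the genome's regions.

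In the Grin2b window 6 of the 30 regions, or 20%, were called in all 4 libraries, against 14.4% in the genome. Of these 5 lay together near the 3′ side, and the sixth near the upper edge of the window. The dense stretch ran over 3.93 kb from 135679752 to 135683679, 19.8 kb above the lower edge, and its 8 regions held 82.4% and 78.9% of the window's IP tags in peaks at 6 weeks, against 91.5% and 83.5% at 2 weeks. In this stretch the libraries listed 6 and 7 peaks at 6 weeks, against 7 and 9 at 2 weeks. The greater number of Grin2b peaks at 6 weeks therefore came from outside it: single-library regions in the Grin2b window numbered 7 and 12 in the 6-week lists, against 0 and 1 in the 2-week lists.

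**Figure D3:**
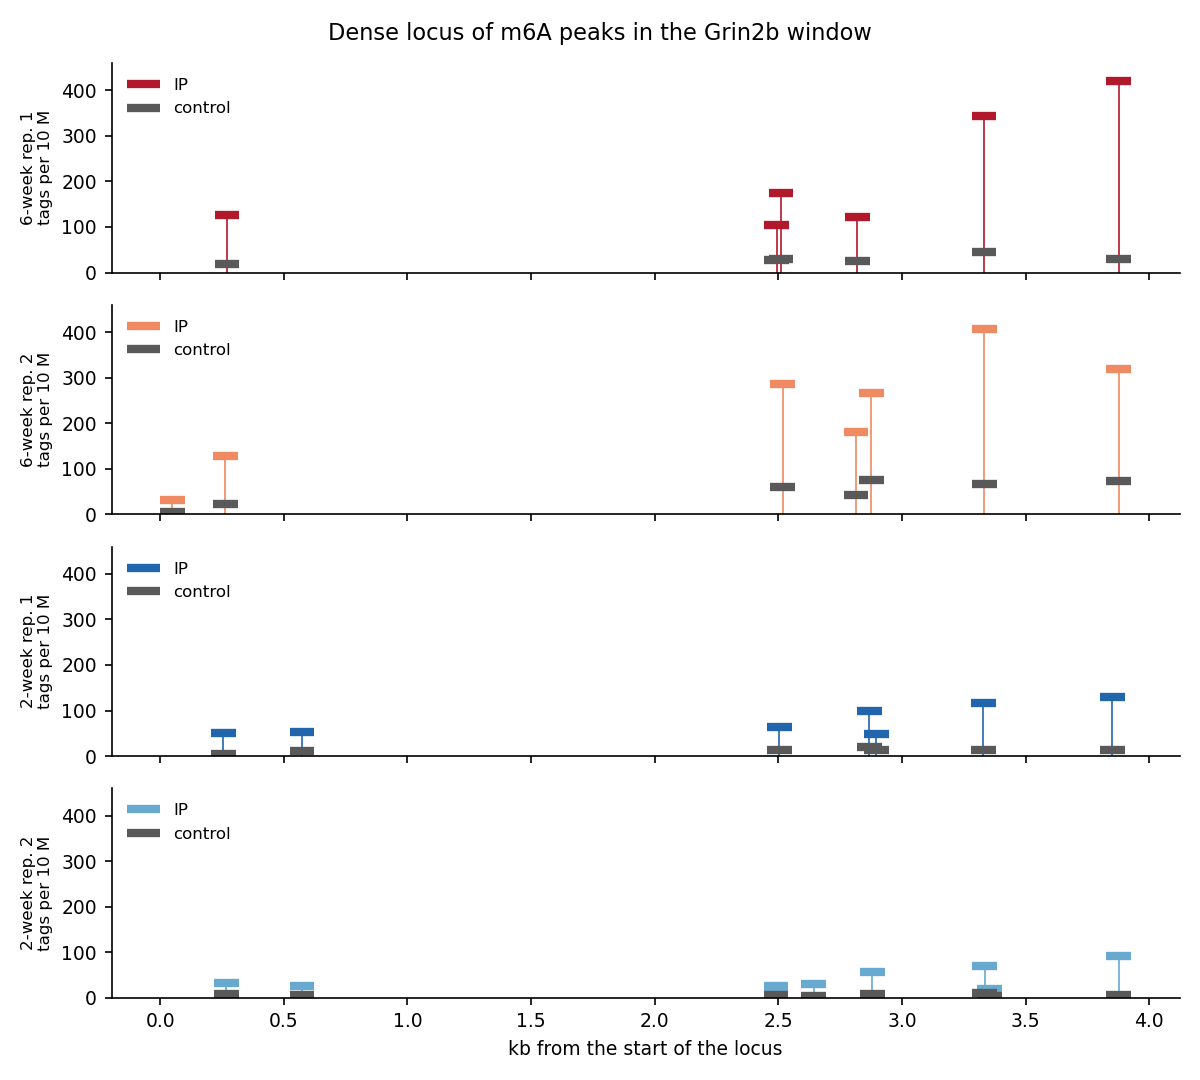
IP tags (coloured bars on stems) and control tags (grey bars) per 10 M of each peak in the dense stretch of the Grin2b window, against the distance in kb from its start, on linear axes from 0, with the 6-week libraries above the 2-week ones. Bars span the width of a peak, and overlapping bars are peaks of 1 list that overlap. The last peak reached 419.8 and 319.8 IP tags per 10 M at 6 weeks, against 129 and 91.5 at 2 weeks, and the grey control bars were higher at 6 weeks as well.

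The Grin2b region with the highest mean IP tags over the libraries was the last one of the stretch, from 135683553 to 135683679. It held 419.8 and 319.8 IP tags per 10 M at 6 weeks, against 129 and 91.5 at 2 weeks. Its control held 30.4 and 72.6 tags per 10 M at 6 weeks, against 12.96 and 5.94 at 2 weeks, from 48 and 85 tags at 6 weeks and 38 and 10 tags at 2 weeks. Neither measure overlapped between the ages, while the deposited folds over control, 13.8 and 4.41 at 6 weeks against 9.97 and 15.4 at 2 weeks, did. Within each library, its IP tags exceeded those of 94.2% and 96.8% of the regions called in all libraries at 6 weeks, against 75.4% and 61.9% at 2 weeks, so the region also stood higher in rank at 6 weeks.

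The neighbouring region from 135683031 to 135683156 followed the same order. It had 343 and 408 IP tags per 10 M at 6 weeks, against 116 and 69.7 at 2 weeks, and 45.0 and 66.6 control tags at 6 weeks, against 14.3 and 10.7 at 2 weeks. The folds, 7.62 and 6.12 at 6 weeks against 8.07 and 6.52 at 2 weeks, overlapped. In the middle of the stretch, the region from 135682193 to 135682320 had 174 and 286 IP tags per 10 M at 6 weeks, against 62.7 and 26.1 at 2 weeks, and 29.8 and 59.8 control tags at 6 weeks, against 13.3 and 7.13 at 2 weeks. In the highest peak per list its folds of 5.83 and 4.78 at 6 weeks stood just above those of 4.71 and 3.67 at 2 weeks. That order was found in 19.3% of the regions called in all libraries. Further peaks there had 3.94-fold in 6-week replicate 1 and 5.24-fold in 2-week replicate 2, and with them the ages overlapped.

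Between them, the region from 135682516 to 135682699 came closest to an overlap of the ages in control tags, by the ratio of its lower 6-week to its higher 2-week value. It had 122 and 267 IP tags per 10 M at 6 weeks, against 98.1 and 56.6 at 2 weeks, and 24.7 and 76.0 control tags at 6 weeks, against 19.4 and 9.51 at 2 weeks. In the highest peak per list its folds of 4.94 and 3.51 at 6 weeks lay below those of 5.05 and 5.96 at 2 weeks. This was the reverse of its neighbour, and an order that 9.96% of the regions called in all libraries had. Another peak there had 3.72-fold in 2-week replicate 1, and with it the ages overlapped. The first region of the stretch, from 135679958 to 135680073, had 127 and 129 IP tags per 10 M at 6 weeks, against 51.6 and 32.7 at 2 weeks, and 17.7 and 22.2 control tags at 6 weeks, against 5.46 and 8.91 at 2 weeks. Its 6-week values were the most alike of the 6 regions, with a mean of 128 ± 1.34 IP tags per 10 M, against 42.1 ± 13.4 at 2 weeks (SD, n = 2 each).

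The region near the upper edge, from 136121622 to 136121871, lay 462 kb above the lower edge, on the 5′ side of the window, and came closest to an overlap in IP tags. It had 52.1 and 115.7 IP tags per 10 M at 6 weeks, against 47.4 and 25.3 at 2 weeks, and 8.87 and 22.2 control tags at 6 weeks, against 4.09 and 5.35 at 2 weeks. Its deposited folds, 5.87 and 5.21 at 6 weeks against 11.6 and 4.72 at 2 weeks, overlapped. By the highest peak per list, in all 6 Grin2b regions both 6-week libraries thus stood above both 2-week libraries in IP and in control tags. Over the 10203 regions called in all libraries that order held for 6.49% in IP tags and 6.92% in control tags, and the opposite order for 41.7% and 46.6%. Counting further peaks of a list ended this order at 135682516 and 136121622. With another peak of 49.5 IP and 13.3 control tags per 10 M at 135682516, 2-week replicate 1 stood above 6-week replicate 1 in both. With further peaks of 2.38 and 3.56 control tags at 136121622, 2-week replicate 2 stood above 6-week replicate 1 in control tags. The 6 regions lie in 1 gene and share its libraries, so they are not replicates of each other.

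**Figure D4:**
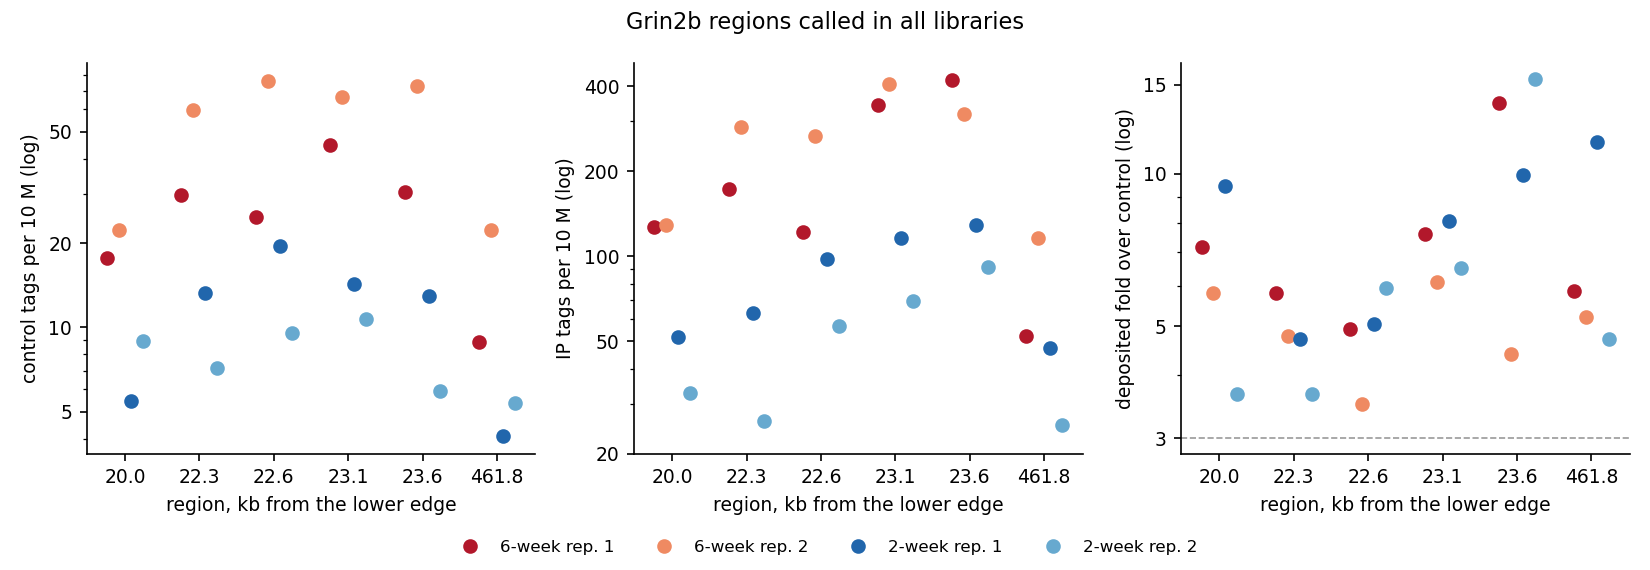
Control tags per 10 M (left), IP tags per 10 M (middle) and the deposited fold over control (right) in the 6 Grin2b regions called in all libraries, on log axes, with regions placed in order of their distance in kb from the lower edge and the 6-week libraries to the left of the 2-week ones. Each point is the peak with the most IP tags that its list had in the region. The dashed line marks the minimum fold of 3. In the first 2 panels both 6-week points stand above both 2-week points in every region, and in the third the ages overlap in 4 of the 6 regions.

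Input tags rose at 6 weeks in the Grin2b regions that could be tested. The test compared control tags at 4577 regions, those where every list had a single peak, with edgeR's quasi-likelihood fit and Benjamini-Hochberg adjustment over all of them. It called 55 regions higher at 6 weeks, or 1.2%, and 49 lower, or 1.07%. A pair of Grin2b regions was among those tested and both were higher. The region from 135683553 had a log2 change of 2.89 ± 0.43 (SE; adjusted p = 6.26e-07), the second smallest p of the 4577 regions, and that from 135679958 had 2.04 ± 0.46 (adjusted p = 0.0040). Peak starts lay within 26 bp and 15 bp of each other across the libraries at these regions.

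The other 4 Grin2b regions had more than 1 peak in at least 1 list. In a fit of the highest peak per list over all 10203 regions, a choice made after seeing the data, 40 regions or 0.392% were higher at 6 weeks, among them all 6 Grin2b regions. With the tags of all its peaks summed per list, 28 regions or 0.274% were higher, again with all 6. With the highest peak, their log2 changes lay between 2.04 and 2.90. The largest was at 135683553, and the adjusted p lay between 0.000162 at 135683031 and 0.0299 at 136121622. Leaving out 2-week replicate 1 or 2-week replicate 2 ended both calls of the fit over 4577 regions, with log2 changes of 1.76 and 2.29 at 135679958 and 3.71 and 2.43 at 135683553. In both of these fits edgeR called 0 of the 4577 regions in either direction, with 251 and 334 at an unadjusted p under 0.05, so the loss was not limited to Grin2b. With the highest peak per list, 4 and 3 of the 6 regions were called higher without 2-week replicates 1 and 2, among 18 and 29 of the 10203 regions. Without 6-week replicates 1 and 2, 6 and 3 were called higher, among 121 and 78.

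IP tags were higher at 6 weeks as well, but whether this passed the threshold depended on the setting. Among the 4577 regions, edgeR called 39 higher at 6 weeks, or 0.852%, and 11 lower, or 0.24%, and both Grin2b regions were among the higher ones. The log2 changes were 2.15 ± 0.39 at 135683553 (SE; adjusted p = 0.0233) and 2.05 ± 0.42 at 135679958 (adjusted p = 0.0318). With the tags of a region's peaks summed, 62 of 10203 regions or 0.608% were higher, and 4 of the 6 Grin2b regions were among them. With the highest peak per list, 0 of the 6 passed, where 5 regions or 0.049% of the genome did. The log2 changes there were 1.74 to 2.86, with adjusted p between 0.058 and 0.148. Scaled to total tags, edgeR called 0 regions of the genome in IP tags, with 736 at an unadjusted p under 0.05. Without 2-week replicate 1 or 2 neither of the 2 Grin2b regions was called in the fit over 4577, where 3 and 3 regions were called higher.

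The ratio of IP to control tags was not shown to change at any Grin2b region. The fit of the interaction of fraction and age gave log2 changes of -0.03 ± 0.51 at 135679958 and -0.71 ± 0.48 at 135683553 (SE; edgeR adjusted p = 0.9991 for both). At 135683553 the value depended on the 6-week libraries, with -1.24 without 6-week replicate 1 (unadjusted p = 0.0052, edgeR adjusted p = 0.454) and -0.012 without 6-week replicate 2. Over the genome it called 0 of 4577 regions, 0%, with 129 at an unadjusted p under 0.05. DESeq2 called 0 as well, with 28 under 0.05 before adjustment, and so did limma, with 142. Over the 6 regions, with the highest peak per list, the log2 changes of the ratio ran from -0.70 to 0.22, and 0 passed. The SE of these estimates was 0.45 to 0.58, and a p that misses the threshold does not show that the ratio was equal at the 2 ages. A region had to pass 3-fold in every list to be tested, so a loss of enrichment below that level could not be seen here.

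**Figure D5:**
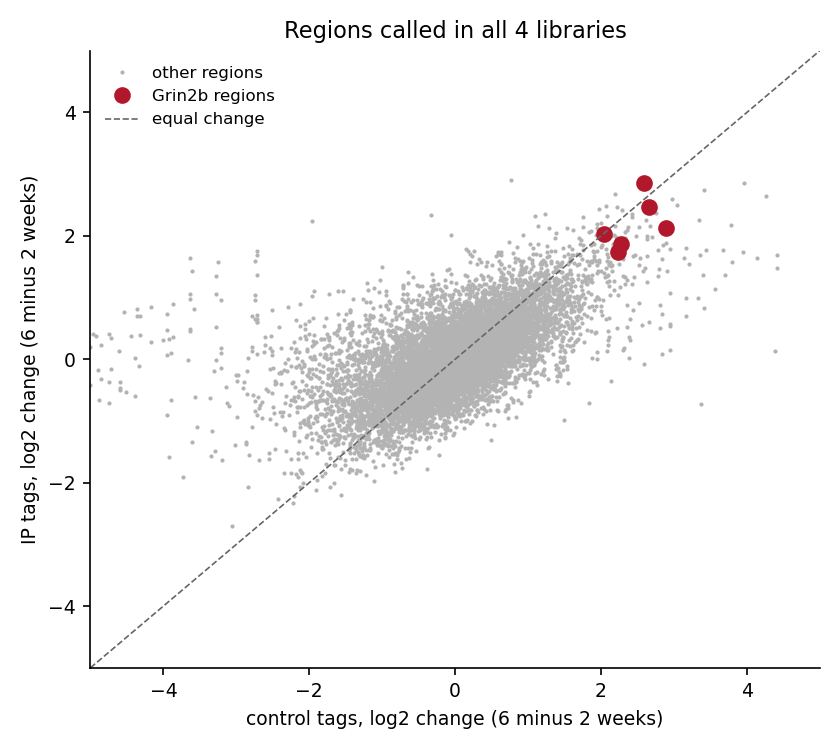
Log2 change of IP tags against log2 change of control tags, 6 minus 2 weeks, from the edgeR fits of the 10203 regions called in all libraries (grey) with the 6 Grin2b regions in red, and a dashed line where both changes are equal. The Grin2b regions lie between 2.04 and 2.90 in control tags and between 1.74 and 2.86 in IP tags, near the dashed line. The fits used the highest peak per list. Beyond the axis limit of 5 lie 25 regions that are not drawn.

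At one age only, the Grin2b window had a region of each kind. The region from 135667646 to 135667804, 7.73 kb from the lower edge, was called at 6 weeks only and had the highest score of the Grin2b regions not shared by all libraries. It held 113 and 98.1 IP tags per 10 M and 26.6 and 29.0 control tags, at 4.24-fold and 3.38-fold over control. In 6-week replicate 1 this IP value stood above that of the shared region near the upper edge, 52.1, and below those in the dense stretch. In 6-week replicate 2 it stood below every shared region, the lowest of which had 115.7. The folds lie close to the minimum. Its 6-week peaks share less than 50% of their width, so with that overlap as the condition for merging it was no longer called at 6 weeks only. The region from 135680276 to 135680376, inside the dense stretch, was called at 2 weeks only, with 53.3 and 27.0 IP tags per 10 M at 4.47-fold and 4.13-fold. Over all 3 windows, 4 regions of the 108, or 3.70%, were called at 6 weeks only, where the genome had 1.92%. The 2 called at 2 weeks only made up 1.85%, where the genome had 6.41%. None of these 6 regions had peaks of 8-fold or more over control in both libraries of its age. Among peaks of at least 8-fold, 1 Grin1 region was among the 767 of the genome called at 6 weeks only. Its peaks, from 25156454 and 25156442, stood at 50.9-fold and 14.19-fold, both from a control without a tag. This Grin1 region lies within the region that 3 libraries share.

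Whether the subunits changed by different amounts was tested as the ratio of their summed tags within a library. The depth of a library cancels as a scaling, but which peaks were called still enters the sums. The IP sum of Grin2a was 0.50 and 0.41 of that of Grin2b at 6 weeks, against 0.18 and 0.41 at 2 weeks. The 6-week ratios were the higher, but 6-week replicate 2 and 2-week replicate 2 were nearly equal, and the log2 difference of 0.75 had an exact permutation p of 0.33. With overlapping peaks of a list counted once it was 0.68, and without the dense stretch of Grin2b 0.050, and in both cases the ages overlapped (exact permutation p of 0.667 and 1). In control tags the ratio of Grin2a to Grin2b was 0.819 and 0.376 at 6 weeks, against 0.218 and 0.561 at 2 weeks, and the ages overlapped (log2 difference 0.67, exact permutation p = 0.667). Without the dense stretch this difference was -0.39. Both alternatives were chosen after seeing the data.

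Against Grin1, IP sums changed by a log2 of -0.73 for Grin2a and -1.48 for Grin2b, both with an exact permutation p of 1. The control sums changed by -1.10 and -1.77 relative to Grin1. These values rest on the Grin1 sum of 2-week replicate 1, which came from 1 peak with 7 IP tags and 1 control tag, and without that library the 4 differences were 0.50, 0.35, 0.26 and 0.28. Over the 9 comparisons of subunits, in IP tags, control tags and their ratio, every Benjamini-Hochberg adjusted p was 1.

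The regions outside the windows whose control tags followed the pattern of the leading Grin2b region most closely were also described. Likeness was the Euclidean distance of log2 control tags per 10 M, centred over the 4 libraries, among 1946 regions with at least 10 control tags in every library. The nearest lay on chromosome 12 from 77430922 to 77431023, at a distance of 1.51, with 12.7 and 21.3 control tags per 10 M at 6 weeks, against 10.6 and 6.54 at 2 weeks. The next lay on chromosome 19 from 53615631 to 53615770, at a distance of 1.61, with 11.4 and 15.4 at 6 weeks, against 6.48 and 5.94 at 2 weeks. In both, the 6-week values stood above the 2-week values by less than in Grin2b, where the 6-week to 2-week ratio of the mean control tags was 5.45.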

How the data were processed

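The files were HOMER peak lists, 1 for each m6A-IP library, so peaks were called per library. Bowtie2 2.2.3, Cufflinks 2.2.1, HOMER, both TopHat2 2.0.13 and TopHat2 2.1.1, and the build mm9 appear in the submitters' processing notes, with no role or order. Per the file headers, the deposited normalized tag count is a scaled signal, with the same factor for every peak of a list. The deposited list of 2-week replicate 1 holds whole IP tag counts and scaled control tags. In the other lists the IP tags are scaled signals and the control tags are whole counts. The deposited fold, a ratio over control, the score and the p-value are the authors' values and only describe or rank peaks. In the deposited lists the p-value was at most 8.32e-05, and the focus ratio, a fraction, was not used. Strand was not used.

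Each scaled value was divided by what 1 tag is worth in its library to give whole tags; 100% of IP and control values were whole within 0.2 tag. A control value of 0.5 tag stood for no tag and was set to 0. Depths assume scaling to 10 M tags. Intervals and floors cover counting error only. Nearly all peaks were 100 bp wide. Some peaks of 1 list overlap or share a start, and each was counted in the sums. Peaks at the same positions can differ in tags. At 135682193 in 2-week replicate 2, 1 peak had 60 IP and 12 control tags and the other 50 and 7. Whether such peaks come from different strands was not tested.

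Tests were edgeR's quasi-likelihood fit with TMM scaling and an offset for peak width, and exact permutation tests of log2 sums over the 4 libraries. Adjusted p-values are Benjamini-Hochberg over all regions, with a threshold of 0.05. Sums over regions with exactly 1 peak in each list exist for Grin2b alone, so every peak of a window was summed. The fits were tested on simulated data for the 4577 regions. Of regions changed by a log2 of 1, they recovered 20% in input, 40% in IP and 4% in enrichment. Of those changed by a log2 of 2, they recovered 72%, 98% and 26%, so the enrichment fit misses most changes of that size. The libraries of an age differed by more than sampling noise: chi-square over its degrees of freedom was 22.0 (IP) and 2.55 (control) at 6 weeks, and 16.7 (IP) and 3.17 (control) at 2 weeks.

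The genes, windows and settings were chosen with earlier results of these data known. The text names all regions called in all 4 libraries or at one age only, the highest in score per gene, and the 2 regions most like the leading one; other regions named were chosen after their values were seen. Lists of pathway genes and cell type markers were not used here, since they need gene positions in mm9. Python 3.11.15 with numpy 2.4.6, pandas 2.3.3, matplotlib 3.10.9 and scipy 1.17.1, and in R 4.3.3 DESeq2 1.42.0, limma 3.58.1 and edgeR 4.0.16, were used.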

Additional observations from a re-analysis of the deposited data

How the results depend on the processing

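Leaving out 1 library assumes that the lone sample varies like the other age; the cause of the moves below was not tested. Of the 2 Grin2b regions higher in input, DESeq2 called 1 (the other had no adjusted p), and starts within 20 bp left 1 region to test, called in input and in IP. Over the genome, DESeq2 called 25 of 4577 regions higher in input. With starts within 20 bp, 14 and 17 of 1435 were higher in input and IP. With at least 1 peak in each list, a table with more regions, 6 were called in input with tags summed, with the highest peak, and with the highest peak under limma or total tags, and 4 under DESeq2. Over the 10203 regions these settings called, in that order, 28, 40, 124, 37 and 27 higher in input. IP calls became 0 with total tags, 4 with tags summed, and with the highest peak 0, also under limma or total tags, but 5 under DESeq2. The genome's higher IP calls moved too, with 0 under total tags and 62 with tags summed. With the highest peak they were 5, with 0 under limma or total tags and 105 under DESeq2. Leaving out 1 library gave 0 to 6 calls in input and in IP. Libraries with the same number deviated from their age's mean with a correlation of 0.026 in IP and 0.047 in control tags, so the numbers were not shown to pair them. With the replicate block both Grin2b regions were called in input (log2 2.03 and 2.78) and in IP, and with the highest peak 6 in each. Over the genome the block called 56 of 4577 regions higher in input and 112 in IP. With the highest peak it called 97 and 228 of 10203.

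The enrichment change at 135679958 stayed near 0, with 0.082 (total tags), 0.0039 (DESeq2), 0.0072 (starts within 20 bp) and 0.0079 (replicate block), and with the highest peak 0.094, 0.0083 and 0.019 (replicate block). It ran from -0.64 to 0.71 with 1 library left out, and to 0.73 without 2-week replicate 1 and 0.086 without 6-week replicate 1 with the highest peak.

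As the mean of log2 values per peak, in which added weak peaks lower the mean, Grin2b changed by -0.24 in control and -0.043 in IP tags, Grin2a by 0.034 and 0.40 and Grin1 by 0.89 and 1.37, and the IP to control ratios by 0.49, 0.37 and 0.20 for Grin1, Grin2a and Grin2b. With overlapping peaks counted once the Grin2a ratio change was 0.034. Differences between subunits in the ratio were -0.12 (Grin2a over Grin1) and -0.29 (Grin2b over Grin1) as means of log2 values, -0.073 (Grin2b over Grin1) without the dense Grin2b stretch, where control tags of Grin2a over Grin2b gave -0.39, and -0.085 (Grin2a over Grin2b) with peaks of at least 20 IP tags per 10 M. Leaving out 1 library gave, in control tags, -2.46 to 0.26 (Grin2a over Grin1), -3.81 to 0.28 (Grin2b over Grin1) and -0.014 to 1.35 (Grin2a over Grin2b), in IP tags -1.96 to 0.50 (Grin2a over Grin1) and -3.31 to 0.35 (Grin2b over Grin1), in the ratio -0.34 to 0.51 (Grin2a over Grin2b), and in the ratios of single subunits -0.16 to 0.15 (Grin2a) and -0.39 to 0.20 (Grin2b).

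With at least 50% of the shorter peak shared, 3 regions were called at 6 weeks only, 0 of them in Grin2b, among 1442 in the genome. At 8-fold or more, 1 region, in Grin1 and not among the 4, was called at 6 weeks only and 0 were called at 2 weeks only. The genome had 767 and 1788 such regions. With at least 20 IP tags per 10 M, 1 was called at 2 weeks only, among 1682 in the genome. With 1 library left out, 4 to 54 regions counted as called at 6 weeks only, and 2 to 7 as called at 2 weeks only, since a lone list needs no second call.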
